A study of Mus musculus with 12 samples.

Results

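The CCN genes are a family of secreted proteins that sit in the extracellular matrix, and 3 of them, Ccn1, Ccn2 and Ccn5 (older names Cyr61, Ctgf and Wisp2), were described here in heart muscle of dystrophin-deficient mice. They were represented by 4 of the 22690 probe sets on the arrays and are 3 of 12394 named genes. A probe set is a group of short probes that reads 1 transcript. The genes were taken by name from the family, which was selected on the mdx to control differences of Ccn2 measured in these same arrays. The mdx to control differences of these genes are therefore given as descriptions without a test. All 4 probe sets passed the filter on dim signals, which asked that the 12 arrays average 100 or more in scaled signal.

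The 4 groups were mdx hearts at 8 weeks, control hearts at 8 weeks, mdx hearts at 10.5 months and control hearts at 10.5 months, with 3 Affymetrix arrays of total RNA each. The mdx mouse lacks the muscle protein dystrophin through a defect in Dmd and serves as a model of Duchenne dystrophy, and the series title calls the controls wild type. The labels used here give no strain, sex, time of collection or number of animals behind an array, so p-values measure the spread between these arrays, which may be partly technical. Signal of the brightest Dmd probe set lay between 159 and 286 on the 6 mdx arrays and between 607 and 839 on the 6 control arrays.

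CCN proteins bind integrins, proteoglycans and growth factors, and alter how cells adhere to and build matrix. Ccn1 and Ccn2 are rapidly induced by mechanical strain, by transforming growth factor beta and by the Hippo pathway effectors YAP and TAZ, which act through TEAD transcription factors. In heart, Ccn2 is best known as a marker and a partner factor of fibrosis made by fibroblasts and stressed myocytes. Ccn5 lacks the C-terminal cystine knot domain that the other family members carry, and in mouse hearts it is known to oppose hypertrophic and fibrotic effects of Ccn2.

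The promoter of Ccn1 is shown because the Hippo effectors are known regulators of this gene, and the window carries a match to the TEAD motif GGAATG. Of the 3 genes, Ccn1 matched an entry of the RefSeq promoter table (build GRCm38.p6), and Ccn2 and Ccn5 are given by name. The 250 bases before the Ccn1 start site, chr3:145649986-145650235 on the minus strand, read 5′ to 3′ as follows, with the motif match in capitals.
Ccn1: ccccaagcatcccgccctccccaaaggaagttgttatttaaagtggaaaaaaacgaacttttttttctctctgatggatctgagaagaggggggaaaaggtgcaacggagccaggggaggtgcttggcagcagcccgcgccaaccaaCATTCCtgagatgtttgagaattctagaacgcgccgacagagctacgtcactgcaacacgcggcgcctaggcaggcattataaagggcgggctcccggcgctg
The match begins 103 bases before the start site and lies on the strand opposite to the gene. GGAATG on either strand occurred in 12.6% of 32851 promoter windows of this length. The SMAD motif CAGAC, the AP-1 motif TGACTCA and the CArG box of serum response factor, which occurred in 42.2%, 4.46% and 1.47% of the windows, had no match on either strand of the Ccn1 window.

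Ccn2 was higher in mdx hearts at both ages. At 8 weeks its scaled signal was 1363, 1931 and 1541 in mdx hearts, against 1003, 668.4 and 1024 in control hearts. Every mdx array lay above every control array, as in 9.51% of tested probe sets at this age, and control replicate 2 was the lowest of the 12 arrays. The means were 1611 ± 290.6 in mdx and 898.4 ± 199.5 in control hearts (SD, n = 3 each), a log2 difference of 0.83 ± 0.18 (SE) or 1.78-fold. Without control replicate 2 the difference was 0.64.

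At 10.5 months Ccn2 signal was 2847, 2855 and 2780 in mdx hearts, against 1199, 1004 and 1003 in control hearts. The mdx arrays lay close together and well clear of the controls. The means were 2827 ± 40.8 in mdx and 1069 ± 113 in control hearts (SD, n = 3 each), a log2 difference of 1.38 ± 0.18 (SE) or 2.61-fold, the fifth largest of the 14932 probe sets tested. The order of the groups from high to low was mdx at 10.5 months, mdx at 8 weeks, control at 10.5 months and control at 8 weeks. Arrays of neighbouring groups overlapped only between the controls of the 2 ages, which differed by 0.26 on the log2 scale where the pooled SD was 0.22.

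All mdx arrays lay above all control arrays at both ages for 76 of the tested probe sets (0.509%), and Ccn2 had the largest sum of log2 differences among them. Since these contrasts chose the gene, nothing is read from that place. The mdx to control difference at 10.5 months exceeded that at 8 weeks by 0.55 ± 0.26 (SE) on the log2 scale, also given as a description (95% interval -0.0094 to 1.11).

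**Figure D1:**
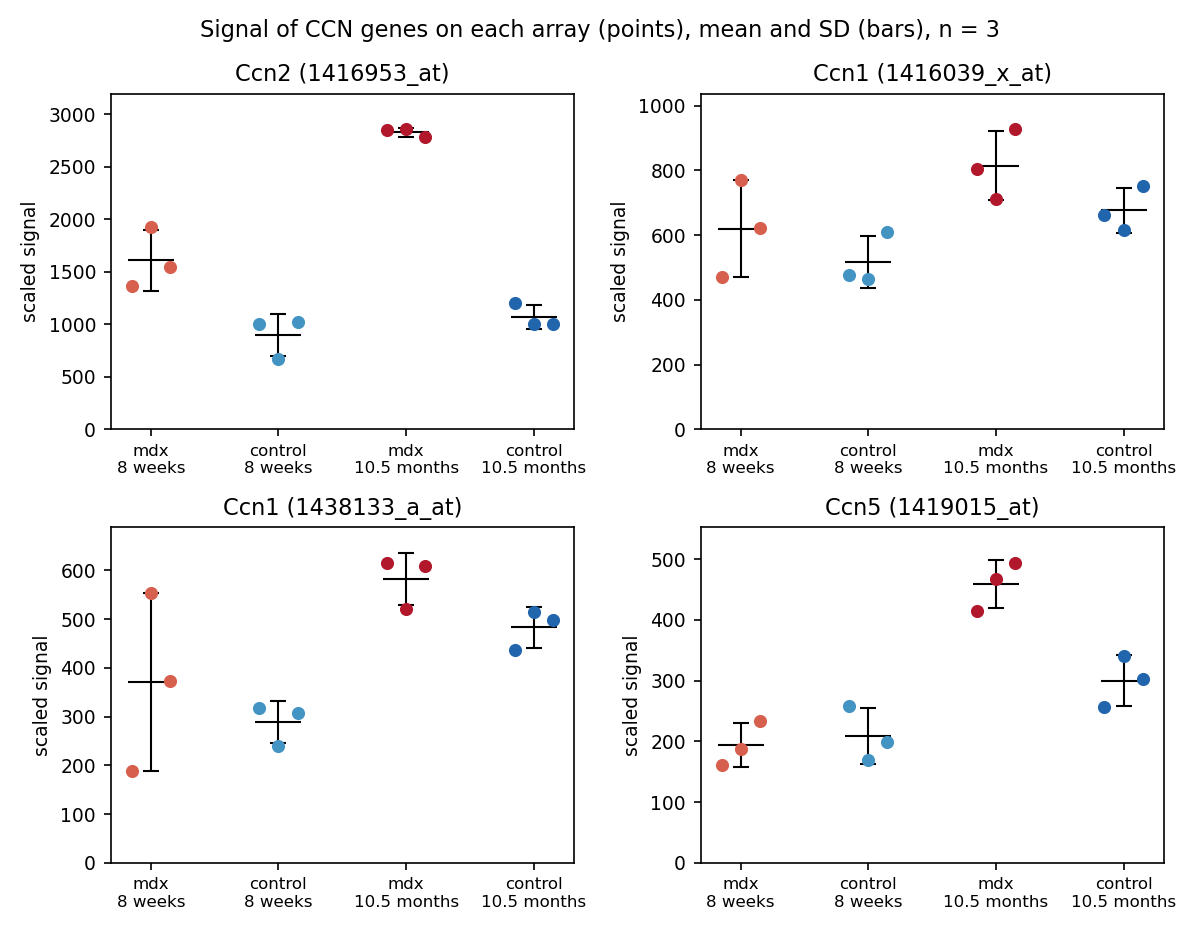
Scaled signal (linear axis) of the 4 probe sets of Ccn2, Ccn1 and Ccn5 on each of the 12 arrays, with a horizontal bar for the group mean and whiskers for the SD of 3 arrays, the brighter Ccn1 probe set at top right and the second at bottom left. Ccn2 in mdx hearts at 10.5 months sits between 2780 and 2855, above every other array, and Ccn5 in mdx hearts at 10.5 months sits between 415.3 and 493.9.

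Ccn1, an immediate early gene that promotes adhesion and blood vessel growth, is read by 2 probe sets. The brighter one is of a type that shares some probes with other sequences. It gave 469.7, 769.1 and 621.3 in mdx hearts at 8 weeks, against 477.9, 465.2 and 609.8 in control hearts. The groups overlapped, and the log2 difference of 0.23 ± 0.19 (SE) ran from 0.07 without mdx replicate 2 to 0.41 without mdx replicate 1.

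At 10.5 months this Ccn1 probe set gave 805.3, 712 and 926 in mdx hearts, against 660.4, 616.7 and 751.2 in control hearts. The ranges overlapped here as well, and the log2 difference was 0.25 ± 0.19 (SE, 95% interval -0.15 to 0.66). The second Ccn1 probe set gave a like difference of 0.23 ± 0.27 at 8 weeks and 0.25 ± 0.27 at 10.5 months. It varied most among mdx hearts at 8 weeks (188.8, 553.6 and 372.2, against 318.6, 239 and 307.4 in control hearts). At 10.5 months it was 615.4, 520.3 and 609.3 in mdx hearts and 435.8, 515.7 and 498.4 in control hearts, without overlap but with the nearest arrays almost level. All mdx arrays lay above all control arrays at 10.5 months in 7.51% of tested probe sets.

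Ccn5 showed no mdx difference beyond the spread of the arrays at 8 weeks and a higher signal in mdx hearts at 10.5 months. At 8 weeks it was 161.5, 187.7 and 233.1 in mdx hearts, against 258.6, 168.5 and 198.6 in control hearts. The groups overlapped, with a log2 difference of -0.08 ± 0.18 (SE) that was 0.06 without control replicate 1 and 0.02 without mdx replicate 1.

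At 10.5 months Ccn5 was 415.3, 467.9 and 493.9 in mdx hearts, against 256.8, 341.2 and 302.2 in control hearts. The groups did not overlap, and the means were 459 ± 40.04 in mdx and 300.1 ± 42.25 in control hearts (SD, n = 3 each). The log2 difference was 0.57 ± 0.18 (SE), 1.48-fold, and 1.45% of tested probe sets had a larger one. The mdx difference of Ccn5 at 10.5 months exceeded that at 8 weeks by 0.65 ± 0.25 (SE) on the log2 scale, a description as for Ccn2. In order of level, mdx hearts at 10.5 months stood first for Ccn5, control hearts at 10.5 months followed, and the mdx and control hearts at 8 weeks came last and did not differ beyond their spread. The control arrays of the 2 ages also overlapped.

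Of the other CCN genes, Ccn3 and Ccn4 were dim. Ccn3, which restrains growth in several cell types, was measured above the filter by 1 probe set, with 126.8, 111.3 and 198.8 in mdx hearts at 8 weeks, against 135.1, 124.8 and 117.1 in control hearts. Its 10.5-month values were 168.4, 145.9 and 159.8 in mdx hearts, against 178.7, 160.4 and 126.6 in control hearts. Its groups overlapped at both ages, and its differences of 0.14 ± 0.18 at 8 weeks and 0.03 ± 0.18 at 10.5 months did not pass (limma, adjusted p = 0.731 and 0.982). The second probe set of Ccn3 and both of Ccn4, a target of Wnt signalling, had mean scaled signals of 87.7, 55.79 and 9.348 and were below the filter. No probe set was annotated to Ccn6 alone, so no signal of it is given.

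Age was compared next, with an adjusted p below 0.05 in limma called a change. The mean age difference over both genotypes is uncorrelated with the mdx contrasts by which Ccn2 was picked only if all groups spread alike. It was added after the values had been seen. The log2 SD of Ccn2 ran from 0.0207 in mdx hearts at 10.5 months to 0.334 in control hearts at 8 weeks. The same arrays also gave the error of both contrasts, so the age p-value of Ccn2 is not fully independent of its choice. On the mean age difference Ccn5 rose 1.74-fold at 10.5 months relative to 8 weeks (log2 0.80 ± 0.13, limma adjusted p = 0.00336). Ccn2 rose 1.45-fold (0.54 ± 0.13, limma adjusted p = 0.0216). The brighter Ccn1 probe set did not pass (0.38 ± 0.13, limma adjusted p = 0.0763), while the second Ccn1 probe set rose 1.63-fold (0.70 ± 0.19, limma adjusted p = 0.0325).

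Of the 4 probe sets of Ccn1, Ccn2 and Ccn5, 3 were called higher with age, as were 6.02% of all tested probe sets. Ccn1 is counted there by both of its probe sets, of which only the second passed. Since Ccn2 was picked from these arrays and this contrast was added after the values had been seen, no excess is read from that count. The tested Ccn3 probe set did not pass (0.18 ± 0.13, limma adjusted p = 0.359). The Ccn2 call on the mean age difference was lost without control replicate 1 at 10.5 months (limma adjusted p = 0.0615). The brighter Ccn1 probe set passed without mdx replicate 2 at 8 weeks (0.46, limma adjusted p = 0.0418). Ccn5 kept its call on the mean age difference without any 1 array (limma adjusted p between 0.00286 and 0.0129).

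Within mdx hearts, Ccn5 rose 2.18-fold with age, from the signals given above (log2 1.13 ± 0.18, limma adjusted p = 0.00327). Ccn2 rose 1.76-fold in mdx hearts (0.81 ± 0.18, limma adjusted p = 0.0161), a call that was lost without mdx replicate 2 at 10.5 months (limma adjusted p = 0.0567). The Ccn1 probe sets were at 0.39 ± 0.19 and 0.71 ± 0.27 in mdx hearts and did not pass (limma adjusted p = 0.175 and 0.0995). Among all tested probe sets 5.45% were called higher with age in mdx hearts. The arrays of mdx hearts also entered the choice of Ccn2. Its age difference in mdx hearts is not independent of that choice and is therefore given without a test.

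Within control hearts, no CCN probe set passed, and 0.0938% of all tested probe sets were called higher. Ccn5 was at 0.47 ± 0.18, the Ccn1 probe sets at 0.37 ± 0.19 and 0.69 ± 0.27, and Ccn2 at 0.26 ± 0.18 (limma, adjusted p = 0.312, 0.455, 0.331 and 0.612; unadjusted p = 0.0193, 0.0693, 0.0230 and 0.178). Without control replicate 2 at 8 weeks the Ccn2 age difference in control hearts was 0.07. The gap between the age differences of mdx and control hearts is the same quantity as the change of the mdx difference with age, given above as a description.

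**Figure D2:**
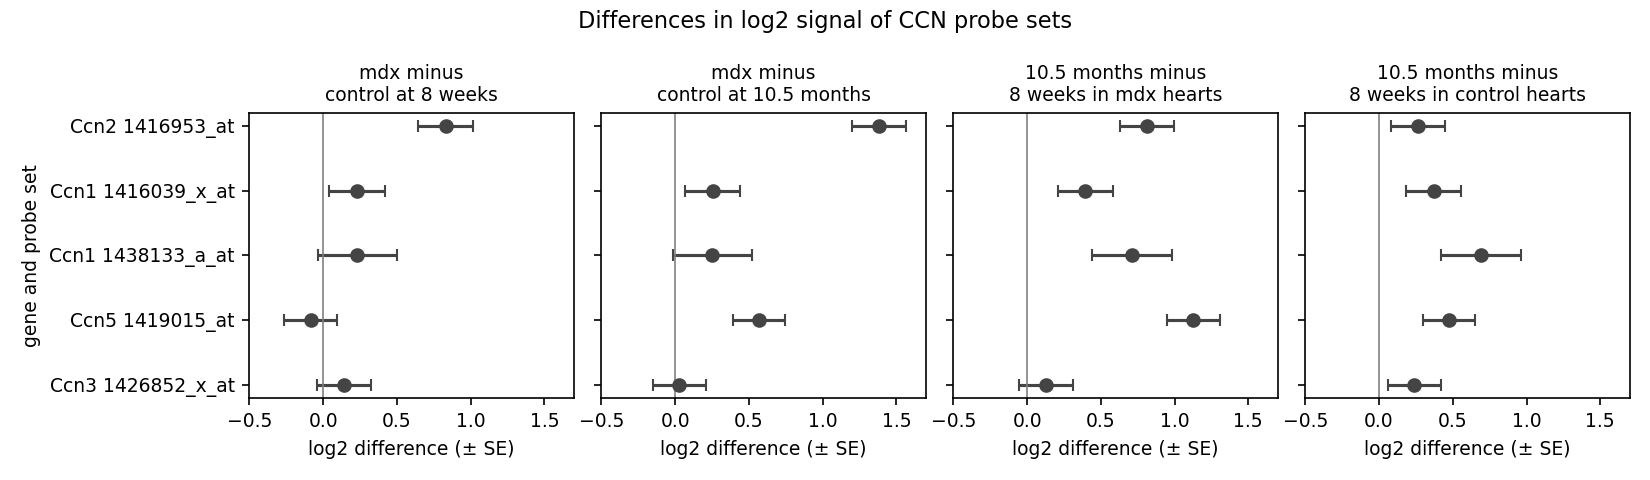
Log2 differences in signal (horizontal axis, points) with their standard errors (bars) for the CCN probe sets above the filter, for mdx minus control hearts at each age and for 10.5 months minus 8 weeks within each genotype. Ccn2, which was chosen on its mdx differences, has the largest of them here at both ages (0.83 and 1.38), and Ccn5 has the largest age difference in mdx hearts (1.13).

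The tissue is a mixture of cells, and fewer cells of a type cannot be told apart from less RNA per cell. Markers of fibroblasts, the cells that make most cardiac matrix, had a higher sum in mdx hearts at both ages, without overlap. Their summed scaled signal (9 genes, all above the filter) was 22350 to 25220 in mdx hearts and 17320 to 20580 in control hearts at 8 weeks. At 10.5 months it was 23010 to 31170 in mdx hearts and 20650 to 21340 in control hearts. Dcn, the brightest marker (mean 9794), weighs most in this sum. The mean log2 signal of the 9 genes overlapped at 8 weeks, with 10.51 to 10.63 in mdx and 10.11 to 10.6 in control hearts. All mdx arrays lay above all control arrays for 0 of the 9 genes at 8 weeks and 4 at 10.5 months. Among all tested probe sets the shares were 9.51% and 7.51%. Of the 9 genes 9 had positive differences at 8 weeks (median log2 0.28) and 8 at 10.5 months (median 0.24), and none passed by limma, where 0 and 3 had an unadjusted p below 0.05. Pdgfra was the exception at 10.5 months (-0.02 ± 0.26). Over the 12 arrays the markers correlated with Ccn2 from 0.136 for Col1a2 to 0.793 for Mfap5, and after the group means were removed Dcn stood at -0.479 and Pdgfra at 0.700. Of these markers 5 are also in the collagen matrix list.

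With the mean log2 signal of these 9 markers as a covariate, an alternative added after the data were seen, the mdx to control difference of Ccn2 was 0.66 ± 0.21 at 8 weeks and 1.11 ± 0.25 at 10.5 months. The mean age difference of Ccn2 was then 0.29 ± 0.21 (limma adjusted p = 0.775) and that of Ccn5 0.69 ± 0.22 (limma adjusted p = 0.428). In that model 8 probe sets were called for the mean age difference, against 1724 without the covariate. The mdx arrays at 10.5 months lay above all others in mean log2 marker level, as the plot of Ccn2 against fibroblast markers shows.

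**Figure D3:**
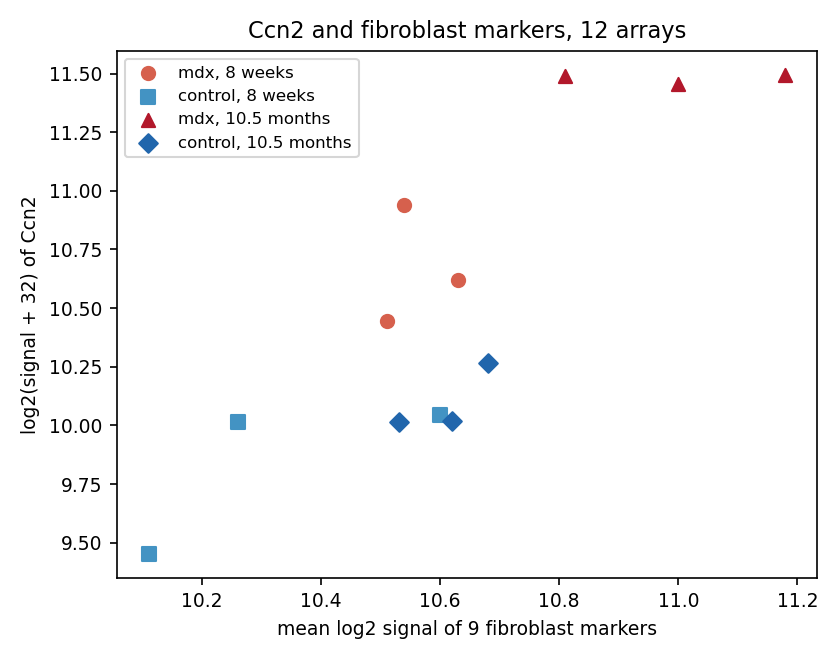
Log2 signal of Ccn2 (vertical axis) against the mean log2 signal of 9 fibroblast marker genes (horizontal axis), 1 point per array, with colour and shape for the group. The 3 mdx arrays at 10.5 months have marker levels of 10.81 to 11.18 and the 3 control arrays of that age 10.53 to 10.68, while at 8 weeks the mdx arrays span 10.51 to 10.63 and the control arrays 10.11 to 10.60.

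Other marker sums were set beside the same differences. Atrial markers (4 genes) summed to 11850 to 12580 in mdx hearts and 4193 to 6291 in control hearts at 8 weeks. At 10.5 months the sums were 11590 to 18090 in mdx hearts and 4926 to 22190 in control hearts. Nppa, the brightest, weighs most in these sums, with 9769, 9902 and 11200 in mdx hearts at 8 weeks, against 4635, 3412 and 4983 in control hearts. The median log2 difference of the 4 genes was 1.07 at 8 weeks and -1.86 at 10.5 months, where Nppa differed in sign from the other genes. None of the 4 passed by limma (1 and 4 with an unadjusted p below 0.05). The atrial myosin gene Myl7 was 269.8, 150.8 and 284.2 in mdx hearts at 10.5 months, against 3554, 2216 and 130.5 in control hearts. Sln was 25.52, 11.76 and 91.59 in mdx hearts, against 2242, 1220 and 9.13 in control hearts. Control replicates 1 and 2 thus stood apart from all other arrays of that age, the third control array included. Without control replicate 1 the mdx difference at 10.5 months was 1.47 for Ccn2 and 0.47 for Ccn5, and without control replicate 2 it was 1.34 and 0.66. With the mean log2 signal of Myl7, Myl4 and Sln as a covariate, Ccn2 differed between mdx and control hearts by 0.79 ± 0.20 and 1.49 ± 0.23. Smooth muscle and pericyte markers (7 genes tested) summed to 16050 to 16840 in mdx hearts and 14140 to 15650 in control hearts at 10.5 months, and overlapped at 8 weeks (13390 to 20140 in mdx, 15880 to 19170 in control hearts). Their median was 0.07 at 8 weeks, with 2 of 7 (Acta2 and Smtn) called lower where 0.911% of all tested probe sets were, and -0.27 at 10.5 months, opposite in sign to the sum, with none called (limma, 2 with an unadjusted p below 0.05).

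Macrophage markers (9 genes) overlapped at both ages, with 8817 to 9135 in mdx and 7900 to 9185 in control hearts at 8 weeks, and 7948 to 12930 in mdx and 7111 to 9510 in control hearts at 10.5 months. Endothelial markers (8 genes) overlapped as well, with 6939 to 8556 in mdx and 7863 to 9010 in control hearts at 8 weeks, and 5943 to 7280 in mdx and 6707 to 7472 in control hearts at 10.5 months. The macrophage medians were -0.05 and 0.21 and the endothelial ones -0.12 and -0.11, with no gene called by limma (1 macrophage gene at each age, and 1 and 2 endothelial genes, with an unadjusted p below 0.05). The part of the smooth muscle, macrophage and endothelial markers in the CCN differences was not tested.

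The tissue label was checked because the sample records carry a keyword for extraocular muscle. The 6 cardiac myocyte markers had mean signals of 27050 to 34010. Their sums were 114800 to 370000 in mdx and 124600 to 247800 in control hearts at 8 weeks. At 10.5 months they were 139000 to 185800 in mdx and 119500 to 145900 in control hearts. Of the 7 fast skeletal muscle genes on the arrays, 6 lay below the filter with means of 15.83 to 74.88, and Ckm, which heart also expresses, was the exception (mdx differences 0.02 and 0.16). The cardiac myocyte medians were 0.39 and 0.22, with 0 genes called by limma and 0 with an unadjusted p below 0.05. The 99th percentile of deposited signal was 53154 and 45663 on mdx replicates 1 and 2 at 8 weeks, 40770 on mdx replicate 3 at 10.5 months and 43094 on control replicate 2 at 8 weeks, against 27563 to 32810 elsewhere. With this percentile as a covariate, Ccn2 differed between mdx and control hearts by 0.92 ± 0.18 and 1.46 ± 0.18.

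Genes that act before, beside or after the CCN factors were examined as lists, with 1 probe set per gene. Over all 8852 genes tested the median mdx difference was -0.01 at 8 weeks and -0.02 at 10.5 months, and 48.3% and 46.1% of genes had positive values. At 8 weeks 2.15% of genes passed by limma, and at 10.5 months 0.0678%.

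Transforming growth factor beta (TGF-beta) is a known inducer of Ccn2. Its list held ligands and receptors, proteins that store or activate the ligands, and SMAD factors that carry or inhibit the signal. Transcript levels do not measure the activity of this pathway, and its part in the Ccn2 difference was not tested. None of the listed genes passed at either age by limma, where 4 and 1 had an unadjusted p below 0.05. Of 17 genes 6 were positive at 8 weeks (median -0.11) and 4 at 10.5 months (median -0.22). Tgfb1, the main profibrotic ligand, was 391, 412 and 482.1 in mdx hearts at 8 weeks, against 711.1, 507.8 and 690.8 in control hearts. All its mdx values lay below the control values, as in 10.1% of tested probe sets at this age (log2 -0.53 ± 0.16, limma adjusted p = 0.110). At 10.5 months the Tgfb1 difference was -0.22 ± 0.16 (limma adjusted p = 0.802). Tgfb2, a related ligand, was 332.4, 370.2 and 280.5 in mdx hearts at 10.5 months, against 188.8, 143.8 and 159.6 in control hearts (0.87 ± 0.23, limma adjusted p = 0.367). All its mdx arrays lay above all control arrays, as in 7.51% of tested probe sets at that age.

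Target genes of TGF-beta other than the CCN genes had 7 of 10 positive values at 8 weeks (median 0.23) and 8 of 10 at 10.5 months (median 0.15), and none passed by limma, where 1 and 2 had an unadjusted p below 0.05. Periostin (Postn), a matrix protein of activated fibroblasts, had the smallest p at both ages. It was 774.1, 776.4 and 3106 in mdx hearts at 8 weeks, against 372.5, 736.1 and 868.5 in control hearts, and mdx replicate 3 stood far above the rest (0.96 ± 0.44, limma adjusted p = 0.278). At 10.5 months it was 1664, 2588 and 1896 in mdx hearts, against 861.2, 844.4 and 687.5 in control hearts (1.31 ± 0.44, limma adjusted p = 0.594). These groups did not overlap, with mdx above control as in 7.51% of tested probe sets.

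Hippo pathway genes did not pass at either age by limma, where 3 and 0 had an unadjusted p below 0.05 (7 of 12 positive and median 0.05 at 8 weeks, 3 of 12 positive and median -0.15 at 10.5 months). The transcriptional coactivators were at -0.38 ± 0.17 and -0.19 ± 0.17 for Yap1, and at 0.08 ± 0.15 and -0.12 ± 0.15 for Wwtr1, which encodes TAZ (limma, adjusted p = 0.263, 0.843, 0.809 and 0.888). Nf2, which encodes the upstream regulator merlin, had the smallest p at both ages (-0.48 ± 0.16 and -0.35 ± 0.16, limma adjusted p = 0.146 and 0.674). Transcript levels do not measure the phosphorylation that controls YAP and TAZ.

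Of the 16 other YAP and TAZ targets tested, 10 were positive at 8 weeks (median 0.07) and 7 at 10.5 months (median -0.10), where limma called none and 4 had an unadjusted p below 0.05. Tgfb2, given above, had the smallest p at 10.5 months. Nt5e, which encodes the cell surface enzyme CD73 that forms adenosine, fell in mdx hearts at 8 weeks (-1.20 ± 0.23, limma adjusted p = 0.0243) and was the only target in the list to pass. It was 108.1, 127.8 and 110.4 in mdx hearts at 8 weeks, against 310.7, 215.9 and 420.4 in control hearts, and at 10.5 months its difference was 0.59 ± 0.23 (limma adjusted p = 0.665). Ankrd1, the other target with an unadjusted p below 0.05 at 8 weeks, was higher (0.88 ± 0.25, limma adjusted p = 0.0848). At 10.5 months its difference was 0.50 ± 0.25 (limma adjusted p = 0.689). All its mdx arrays lay above all control arrays at both ages, as in 0.509% of tested probe sets. At 8 weeks the nearest arrays were almost level (11630 against 11550).

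In the list of serum response factor and its cofactors and targets, 0 genes passed higher and 2 passed lower at 8 weeks, and none passed by limma at 10.5 months, where 2 had an unadjusted p below 0.05 (6 of 13 positive with a median of -0.19, and 7 of 13 with a median of 0.03). Acta2, smooth muscle actin and a marker of myofibroblasts, was 3580, 4356 and 3693 in mdx hearts at 8 weeks, against 6631, 7550 and 6144 in control hearts, and fell (-0.80 ± 0.14, limma adjusted p = 0.0184). At 10.5 months it was 5026, 4661 and 4430 in mdx hearts, against 3044, 2804 and 3173 in control hearts, a difference of 0.64 ± 0.14 that did not pass (limma adjusted p = 0.287). Acta1, skeletal actin, also fell at 8 weeks (-1.20 ± 0.23, limma adjusted p = 0.0251). Srf itself was at -0.30 ± 0.17 and -0.20 ± 0.17 (limma adjusted p = 0.386 and 0.838).

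Binding partners and receptors of CCN proteins, among them the integrins, Lrp1 and decorin, had 8 of 16 positive values at each age (medians -0.03 and 0.01), and none passed by limma, where 1 gene at each age had an unadjusted p below 0.05. At 8 weeks that gene was Tgfb1, given above. At 10.5 months it was the Wnt coreceptor gene Lrp6 (-0.41 ± 0.18, limma adjusted p = 0.666). Of 17 listed genes for hormones known to induce CCN2, their enzymes and receptors, 10 were tested. The angiotensin genes Agt, Agtr1a and Agtr2 were not among them. Of the 10 tested, 2 were positive at 8 weeks (median -0.22) and 5 at 10.5 months (median 0.02). Again none was called by limma (2 and 0 with an unadjusted p below 0.05). The endothelin receptor gene Ednrb (0.41 ± 0.18, limma adjusted p = 0.255) came nearest at 8 weeks. The other of the 2 genes, the receptor gene Lpar1, was lower (-0.43 ± 0.19, limma adjusted p = 0.266). Ece1, which encodes the enzyme that activates endothelin, came nearest at 10.5 months (-0.47 ± 0.27, limma adjusted p = 0.732).

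Genes of the collagen matrix had 14 of 20 positive values at 8 weeks (median 0.15) and 18 of 20 at 10.5 months (median 0.22). None passed by limma, where 4 and 5 had an unadjusted p below 0.05. Col8a1, a short chain collagen of vessel walls, came nearest at 8 weeks (0.77 ± 0.20, limma adjusted p = 0.0623). Of the 4 genes at 8 weeks, Col8a1 and Postn were higher in mdx hearts. Timp2 (-0.53 ± 0.17, limma adjusted p = 0.124) and Col6a2 (-0.50 ± 0.19, limma adjusted p = 0.192) were lower. The proteoglycan gene Lum came nearest at 10.5 months, with 2528, 3714 and 3687 in mdx hearts, against 1956, 2066 and 1645 in control hearts (0.78 ± 0.19, limma adjusted p = 0.367).

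**Figure D4:**
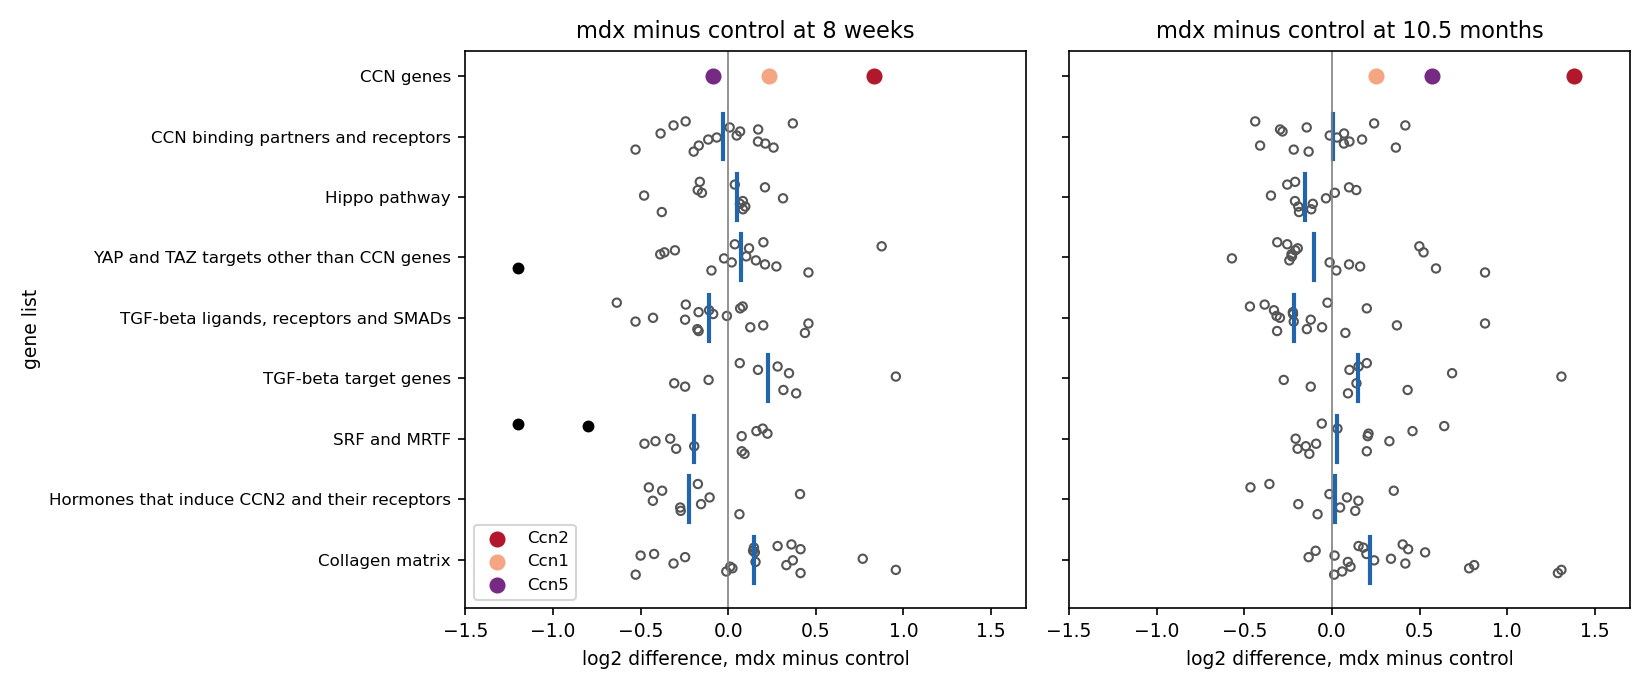
Log2 difference between mdx and control hearts (horizontal axis) at 8 weeks and 10.5 months, for Ccn2, Ccn1 (its brighter probe set) and Ccn5 in the top row and for each gene of 8 lists below, with filled points for genes with an adjusted p below 0.05 and a bar at the list median. At 10.5 months no listed gene has a filled point. Ccn2 stands at 1.38, with Postn nearest at 1.31 ± 0.44 (SE). Since these contrasts chose Ccn2, nothing is read from its place beyond the listed genes.

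Likeness to Ccn2 was described by the Pearson correlation of log2 signal over the 12 arrays, which share the groups and the scaling of each array, so no p is given. The 8 genes most like Ccn2 were Sin3b (0.893), Asns (0.877), Armt1 (0.873), Comp (0.872), Arntl (0.858), Manf (0.843), Svep1 (0.843) and Pi16 (0.838). Comp and Svep1 encode matrix proteins, Asns makes asparagine, Manf is a factor induced by stress of the endoplasmic reticulum, Pi16 is a secreted protein of fibroblasts, Sin3b is a corepressor and Arntl is a core clock gene. Most unlike Ccn2 were Dbp (-0.910) and Hlf (-0.898), clock output factors, and the splicing factor gene Sf3b1 (-0.893).

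Comp was 311.3, 274.6 and 263 in mdx hearts at 10.5 months, against 123.7, 160.2 and 84.17 in control hearts, without overlap. Pi16 was 878.6, 1046 and 1045 in mdx hearts at 10.5 months, against 462.5, 498.5 and 413 in control hearts, also without overlap. All mdx arrays lay above all control arrays at this age in 7.51% of tested probe sets. Both genes were picked for likeness to Ccn2, itself separated at this age, so nothing is read from their separation. Pi16 shared the 10.5-month pattern and not the one at 8 weeks, where its mdx difference was 0.01 ± 0.19. After the group means were removed, the correlations with Ccn2 were lower for all 8 genes, from -0.12 for Asns to 0.51 for Arntl, so the likeness rests mainly on the group means. For the 3 most unlike genes they were -0.69 for Dbp, -0.47 for Hlf and -0.47 for Sf3b1, also nearer to 0.

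Among the CCN genes, Ccn2 and Ccn1 correlated at 0.721 for the brighter and 0.625 for the second Ccn1 probe set over the 12 arrays, and at 0.578 and 0.649 after the group means were removed. Ccn5 correlated with Ccn2 at 0.656 over the 12 arrays and at 0.305 after the group means were removed. Ccn1 stood at rank 70 of the 8851 other genes in likeness to Ccn2.

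**Figure D5:**
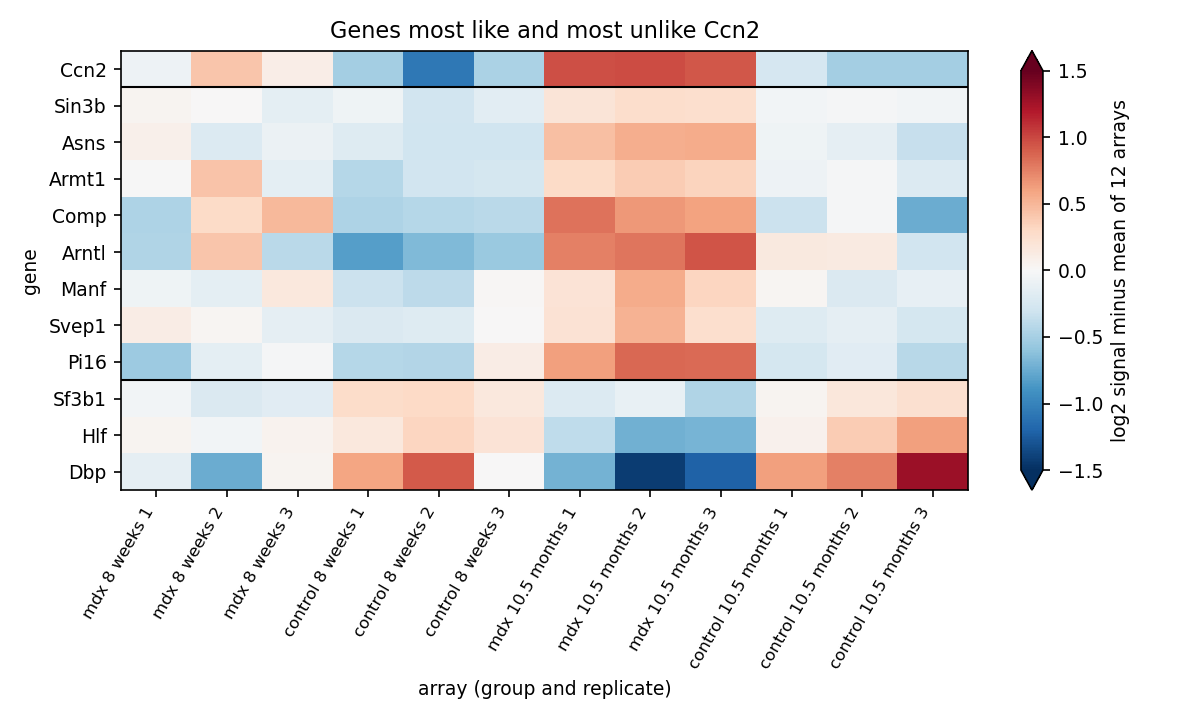
Log2 signal minus its mean over the 12 arrays (colour) for Ccn2, the 8 genes most like it and the 3 most unlike it (rows) on each array (columns, labelled by group and replicate number). The 3 mdx arrays at 10.5 months are highest for Ccn2 and lowest for Hlf, and colours are capped where the scale ends.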

How the data were processed

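Per the labels, total RNA of mouse heart was hybridised to 12 Affymetrix arrays by a standard protocol. The authors deposited 1 intensity per probe set and array on a linear scale (22690 probe sets), already scaled to a common trimmed mean, which lay between 1500.6 and 1500.9. The summary software and detection calls are not given in the sources used here, so precision rests on the 3 arrays of each group.

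Each array was rescaled to a mean of 500 with 2% left off at each end, and log2(signal + 32) was analysed. An offset of 32 understates the change of dim genes. After removal of the array's controls, 14932 probe sets averaging 100 or more were tested, and 13722 of these had 1 gene. Of 20393 probe sets with 1 annotated gene, 20364 were matched to a current symbol. In R 4.3.3, limma 3.58.1 fitted 1 mean per group to all 12 arrays, with 8 residual and 5.2 prior degrees of freedom and Benjamini-Hochberg adjustment over all tested probe sets. The script was tested on simulated data.

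The CCN genes and all lists were chosen with earlier results of these data known. From each list up to 4 called genes are named, or otherwise the gene with the smallest p at each age, besides Tgfb1, Yap1, Wwtr1, Srf and Dmd, the 8 genes most like Ccn2 and the 3 most unlike it. Ankrd1, Lpar1, Timp2 and Col6a2 were added to show the direction of genes with an unadjusted p below 0.05 at 8 weeks. Genes of a list are represented by their brightest probe set. Alternatives changed the offset, the filter, the normalization, the arrays fitted, a replicate block and covariates.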

Additional observations from a re-analysis of the deposited data

How the results depend on the processing

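Of 232 values under settings that kept all arrays of a comparison, 203 kept their side of the threshold where tested, moved by less than 1 SD of the arrays where untested, or stayed within 1.5 times where counts. The Ccn5 mdx difference at 8 weeks, near 0, changed sign to 0.02 with the signal range covariate. With the fibroblast covariate, added after the data were seen, Ccn2 differed between mdx and control hearts by 1.11 at 10.5 months. Its age difference was 0.51 in mdx hearts, a description, and 0.29 over both genotypes (limma adjusted p = 0.775). That of Ccn5 was 0.99 and 0.69 (limma adjusted p = 0.239 and 0.428), and none of the tested differences passed. The change of the Ccn1 mdx difference with age, near 0 throughout, was -0.021 with this covariate and -0.038 with the atrial one. The second Ccn1 probe set passed on the mean age difference (0.70, limma adjusted p = 0.0325). Probe sets called with the fibroblast covariate were 113 at 8 weeks, 0 at 10.5 months, 9 for the difference between ages, 7 for age in control hearts, 15 for age in mdx hearts and 8 for mean age. With the atrial covariate they were 151, 0, 3 and, for age in mdx hearts, 983. A filter at 300 gave 163 at 8 weeks, 10 for the difference and 42 for age in control hearts, and removed Ccn5. The signal range covariate gave 35 for the difference and 36 for age in control hearts. With only the compared arrays fitted, 23 were called at 8 weeks, 7 for age in control hearts and 565 for age in mdx hearts.

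The replicate block gave 176 at 8 weeks, 3 at 10.5 months and 10 for the difference, and changed no call of a CCN gene among the age differences. Deviations of same-numbered arrays correlated between -0.13 and 0.14, above 0.1 in 2 of 18 pairs, so the numbers were not taken to pair arrays.

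Leaving out 1 array at a time gave these ranges. The log2 differences of Ccn2 were 0.64 to 0.94 for mdx against control at 8 weeks, 1.34 to 1.47 at 10.5 months, 0.44 to 0.74 for the change between them, 0.07 to 0.37 for age in control hearts, 0.70 to 0.95 for age in mdx hearts and 0.44 to 0.61 for mean age. The log2 differences of Ccn1 were 0.07 to 0.41 for mdx against control at 8 weeks, 0.16 to 0.34 at 10.5 months, -0.15 to 0.19 for the change between them, 0.30 to 0.49 for age in control hearts, 0.22 to 0.56 for age in mdx hearts and 0.29 to 0.46 for mean age. The log2 differences of Ccn5 were -0.21 to 0.06 for mdx against control at 8 weeks, 0.47 to 0.66 at 10.5 months, 0.51 to 0.78 for the change between them, 0.35 to 0.62 for age in control hearts, 1.02 to 1.25 for age in mdx hearts and 0.74 to 0.87 for mean age. Counts of probe sets called were 42 to 308 for mdx against control at 8 weeks, 1 to 12 at 10.5 months, 0 to 31 for the change between them, 7 to 35 for age in control hearts, 598 to 1883 for age in mdx hearts and 808 to 2283 for mean age. The change of the Ccn1 mdx difference with age was -0.09 without control replicate 3 and -0.15 without mdx replicate 1 at 8 weeks, and -0.04 without control replicate 2 and -0.07 without mdx replicate 3 at 10.5 months. The cause of these shifts was not tested. With 3 arrays a group and no detection calls, small differences of dim genes could not be resolved.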
